A study of Mus musculus with 6 samples.

Results

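The class B G protein-coupled receptors examined here were those for the incretins GLP-1 and GIP (Glp1r, Gipr), for glucagon and GLP-2 (Gcgr, Glp2r), for VIP and PACAP (Vipr1, Vipr2, Adcyap1r1), for CRH and the urocortins (Crhr1, Crhr2) and for secretin (Sctr). These 10 genes were taken by symbol from a table of 54532 genes, and each symbol matched a single row. Poly-A RNA had been sequenced from pancreatic islets of mice aged 7 weeks, in 3 libraries labelled Wtap-βKO and 3 libraries of Wtap flox/flox controls, in which Wtap carries recombination sites. WTAP is a subunit of the complex that writes N6-methyladenosine on RNA, and the series title names its effects on the function of β cells, which make insulin. Each library pooled the islets of 3 mice. The labels name neither the Cre driver nor the deleted exons of the Wtap-βKO mice, and islets hold α, δ and PP cells, vessels and connective tissue beside β cells.

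Class B receptors hold the tail of a peptide hormone with a large extracellular domain and let its head enter the bundle of membrane helices. Most of them couple to the stimulatory G protein Gs, which drives adenylyl cyclase, and the cAMP that follows acts through protein kinase A and the exchange factor EPAC. In β cells this raises insulin release when glucose is high, and the GLP-1 receptor is the target of the GLP-1 drugs used in diabetes.

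Levels are FPKM as deposited, the fragments of a gene relative to its length and to a library size. That size was not the total of reads: it was 1.04 to 1.07 times the recovered reads in the libraries labelled Wtap-βKO and 0.952 to 0.988 times in controls, and the median-of-ratios factor of the values was 1.007 in all 6 libraries. Differences are log2 fold changes of FPKM + 1, libraries labelled Wtap-βKO over controls, tested with limma in the 15927 genes with a mean of at least 0.5 FPKM, and a gene was called where its adjusted p was under 0.05. The libraries held between 16353297 and 18682745 reads, recovered from FPKM and gene length. Wtap itself had 11.2, 11.9 and 12.3 FPKM in the libraries labelled Wtap-βKO, against 10.5, 11.4 and 11.6 FPKM in the controls, so it was no lower there (adjusted p = 0.475 by limma) and directions are those of the labels. The value covers the whole gene in every islet cell type. Of 10 β-cell markers 8 were called lower, with a summed level of 81971 to 92559 FPKM in the libraries labelled Wtap-βKO and 135142 to 155400 FPKM in controls. Of 8 α-cell markers 5 were called higher (33899 to 44757 FPKM in the libraries labelled Wtap-βKO and 21347 to 25554 FPKM in controls), as were 3 of 4 δ-cell markers. Outside the endocrine cells, 4 of 7 mesenchymal markers were called higher, with a summed level of 70.6 to 80.4 FPKM in the libraries labelled Wtap-βKO and 48.5 to 58.5 FPKM in controls. The summed levels of acinar markers (194 to 268 FPKM in the libraries labelled Wtap-βKO and 111 to 190 FPKM in controls) and macrophage markers (110 to 122 FPKM and 92.1 to 102 FPKM) did not overlap either. Of the markers tested, 2 of 9 acinar and 1 of 6 macrophage markers were called higher. No listed marker of either cell type was at 0 in all libraries. Lymphocyte markers went the other way, with a summed level of 1.78 to 3.75 FPKM in the libraries labelled Wtap-βKO and 7.86 to 8.54 FPKM in controls. Cd79a, the only lymphocyte marker tested, was called lower. Replicate 2 labelled Wtap-βKO stood apart from the others of its group in pancreatic polypeptide, Ppy, which was 9428, 19590 and 8761 FPKM in that group and 8489 to 9769 FPKM in controls.

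Groups did not overlap in 41.3% of all genes tested. They did not overlap for Vipr2 and Crhr1 either, though Vipr2 was not called and Crhr1 was below the filter. Promoters are shown for the 4 receptors with a RefSeq sequence whose groups did not overlap, a choice made on these same values. They are credited to RefSeq on GRCm38.p6, run 5′ to 3′ on the gene's strand from 250 bases before to 50 bases after the start, and capitals mark the GC box GGGCGG on either strand.
Glp1r (chr17:30901617-30901916, plus strand): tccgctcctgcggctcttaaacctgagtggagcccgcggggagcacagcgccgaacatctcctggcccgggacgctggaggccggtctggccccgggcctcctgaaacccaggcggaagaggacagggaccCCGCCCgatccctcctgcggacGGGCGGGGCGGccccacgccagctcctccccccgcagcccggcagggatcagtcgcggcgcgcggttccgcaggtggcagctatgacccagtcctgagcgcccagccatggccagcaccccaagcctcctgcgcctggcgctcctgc
Vipr1 (chr9:121642466-121642765, plus strand): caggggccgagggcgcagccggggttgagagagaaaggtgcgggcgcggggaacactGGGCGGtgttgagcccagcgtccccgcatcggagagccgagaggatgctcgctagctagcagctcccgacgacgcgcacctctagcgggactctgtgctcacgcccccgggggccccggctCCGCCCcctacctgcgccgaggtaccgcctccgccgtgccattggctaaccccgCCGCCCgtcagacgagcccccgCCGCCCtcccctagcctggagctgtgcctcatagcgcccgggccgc
Vipr2 (chr12:116077476-116077775, plus strand): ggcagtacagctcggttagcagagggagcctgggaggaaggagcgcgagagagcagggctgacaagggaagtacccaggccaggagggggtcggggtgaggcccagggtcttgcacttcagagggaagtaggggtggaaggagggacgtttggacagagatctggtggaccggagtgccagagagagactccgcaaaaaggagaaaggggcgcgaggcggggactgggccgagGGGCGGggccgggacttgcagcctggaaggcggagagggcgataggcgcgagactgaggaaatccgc
Crhr1 (chr11:104132531-104132830, plus strand): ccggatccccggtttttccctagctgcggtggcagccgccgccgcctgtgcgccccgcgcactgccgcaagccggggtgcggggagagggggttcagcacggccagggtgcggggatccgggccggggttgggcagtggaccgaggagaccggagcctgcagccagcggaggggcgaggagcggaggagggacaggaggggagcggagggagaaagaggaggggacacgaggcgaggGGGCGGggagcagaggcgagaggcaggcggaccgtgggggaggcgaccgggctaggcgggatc
The table matched 8 of the 10 receptors, without Gipr and Sctr. The GC box stood in 35.7% of 32851 mouse promoters of this length. The 300 bases of Glp1r held 3 of them, a pair of which overlap, with a GC content of 73.7%. Vipr1 held 4, also with a GC content of 73.7%, while Vipr2 and Crhr1 held 1 each. Of the receptors matched but not shown, Gcgr held 2 (GC content 71.7%) and Adcyap1r1 held 1 (67.3%). Crhr2 and Glp2r held 0 (59% and 51.3%). The median GC content of all these promoters was 52.7%. The E-box letters CANNTG, which stood in 72.3% of promoters, occurred once in the Glp1r window and in none of the other windows shown. The letters TGACG of the cAMP response element (20.8% of promoters, either strand) occurred once in Vipr1 and in no other window shown, and TAATTA (5.29%) in none of the 4. A match describes letters and does not show a bound site.

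Incretin receptors had the highest FPKM of the 10 genes and were both lower in the libraries labelled Wtap-βKO. Glp1r, the receptor for GLP-1, was 59.7, 40.7 and 58.7 FPKM in the libraries labelled Wtap-βKO (1666, 1079 and 1499 reads), against 145.1, 155 and 144.5 FPKM in controls (3764, 3623 and 3804 reads). The groups lay far apart, and the lowest library was replicate 2 labelled Wtap-βKO. Mean Glp1r was 53.1 ± 10.7 FPKM and 148 ± 5.88 FPKM (SD, n = 3 each), or -1.48 on the log2 scale (SE 0.14, limma adjusted p = 0.00121). Its log2 fold change was the 60th lowest of 15927 genes tested, and its mean level ranked at 229. The call held in all 18 alternatives, with adjusted p from 1.21e-06 to 0.00989. In RNA of whole islets, fewer cells of a type and less RNA per cell cannot be told apart. The part that the lower β-cell markers play in this result and in those of Gipr, Vipr1 and Ucn3 was not tested. Ucn3 is itself among the β-cell markers called lower.

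Gipr, the receptor for GIP, was 37.5, 51.8 and 33.0 FPKM in the libraries labelled Wtap-βKO, against 70.5, 80.1 and 61.7 FPKM in controls. The groups did not overlap, and here replicate 2 labelled Wtap-βKO was the highest of its group. Mean Gipr was 40.8 ± 9.81 FPKM and 70.8 ± 9.18 FPKM (SD, n = 3 each), a ratio of 0.576, or -0.80 on the log2 scale (SE 0.17, limma adjusted p = 0.0193). The call was lost without control replicate 1 (adjusted p = 0.0607) or 2 (adjusted p = 0.0678) and without replicate 1 (adjusted p = 0.0619) or 3 (adjusted p = 0.0523) labelled Wtap-βKO, with log2 fold changes of -0.66 to -0.80 in these fits.

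**Figure D1:**
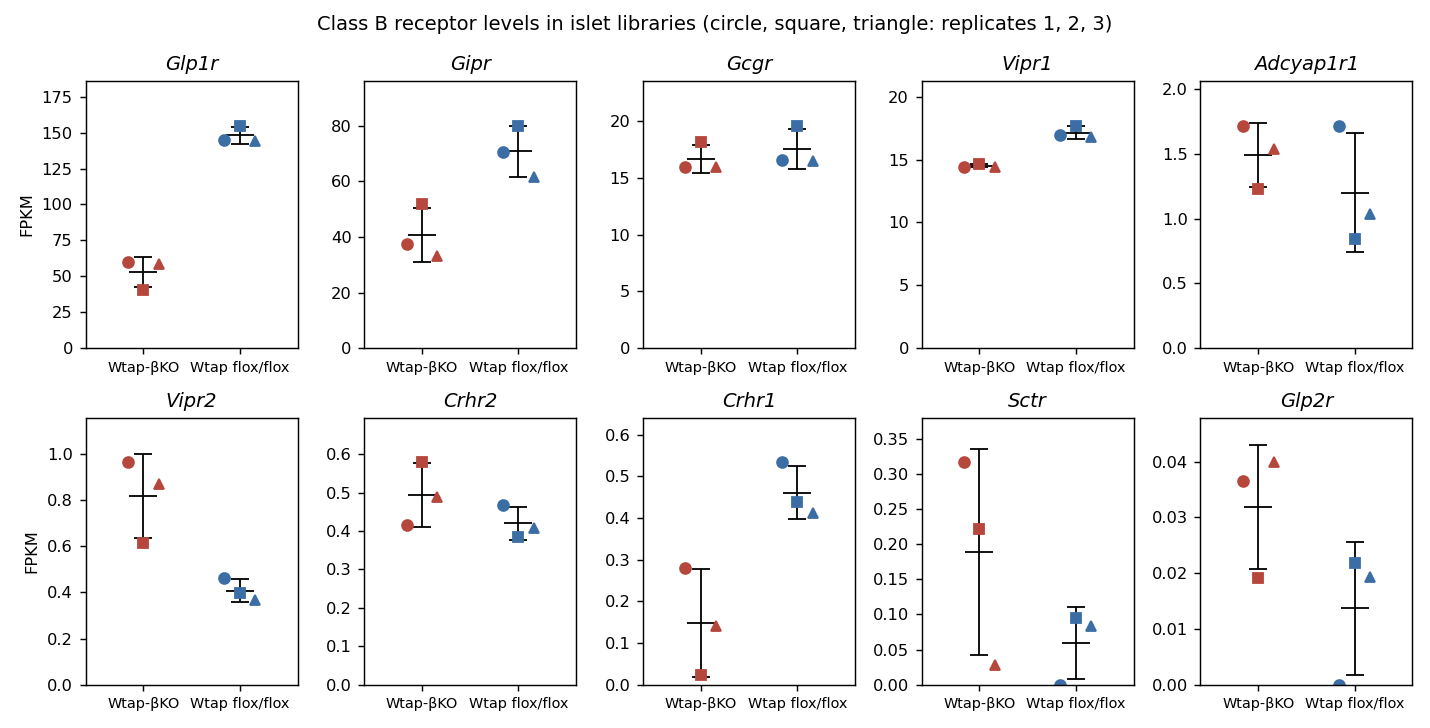
FPKM of each of the 10 receptor genes, with 3 libraries labelled Wtap-βKO to the left of 3 Wtap flox/flox libraries; circle, square and triangle are replicates 1, 2 and 3, and black bars are mean and SD. Glp1r sits between 40.7 and 59.7 FPKM in the libraries labelled Wtap-βKO and between 144.5 and 155 FPKM in controls, while Gcgr overlaps between the groups.

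The ratio of Glp1r to Gipr was 1.59, 0.786 and 1.78 in the libraries labelled Wtap-βKO, against 2.06, 1.94 and 2.34 in controls. In FPKM, Glp1r was thus above Gipr in every library but replicate 2 labelled Wtap-βKO, where the order was the opposite. Control libraries kept a narrow range, and the spread within the group labelled Wtap-βKO came mostly from replicate 2. The order depends on the deposited lengths, 1480 bases for Glp1r (5811 in GENCODE M21) and 3482 for Gipr. In reads, not scaled to length, Gipr lay above Glp1r in every library. Reads of Glp1r were counted on the shorter deposited model alone, so this order depends on the gene model too. Gipr had 2464, 3229 and 1981 reads in the libraries labelled Wtap-βKO and 4304, 4406 and 3825 in controls.

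The glucagon receptor gene Gcgr did not pass the test. It was 15.9, 18.2 and 15.95 FPKM in the libraries labelled Wtap-βKO and 16.6, 19.6 and 16.5 FPKM in controls, and the groups overlapped. The log2 fold change was -0.07 (95% interval -0.28 to 0.14, adjusted p = 0.617 by limma), and it turned to 0.04 when values were scaled to total recovered reads and to 0.0084 without control replicate 2. The interval does not reach the log2 fold changes of Glp1r (-1.48) or Gipr (-0.80). An annotated antisense gene overlaps the span of Gcgr, and reads from any exon bases they share cannot be told apart where strand was not marked. Glp2r, the receptor for GLP-2, which acts mainly in the gut, had 4, 2 and 4 reads in the libraries labelled Wtap-βKO and 0, 2 and 2 reads in controls. That is at most 0.0399 FPKM in any library, and the count of 0 in control replicate 1 allows up to 0.0294 FPKM (3 reads, counting error only), so no difference was detectable at this depth.

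Of the receptors for VIP and PACAP, Vipr1 alone was called by limma. Vipr1, which encodes VPAC1 and binds both peptides, was 14.4, 14.6 and 14.4 FPKM in the libraries labelled Wtap-βKO, against 17.0, 17.7 and 16.8 FPKM in controls. The libraries of each group lay close together, so that a small difference left the groups apart. Mean Vipr1 was 14.5 ± 0.118 FPKM and 17.2 ± 0.486 FPKM (SD, n = 3 each), or -0.23 on the log2 scale (SE 0.051, limma adjusted p = 0.0219). The call depended on the processing: adjusted p was 0.146 with total recovered reads as the scale and 0.0518 after quantile normalization. It was also lost without replicate 1 (adjusted p = 0.0581) or 3 (adjusted p = 0.0731) labelled Wtap-βKO, and likewise when control replicate 1, 2 or 3 was left out (adjusted p = 0.0696, 0.0803 and 0.0590).

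Vipr2, which encodes VPAC2, was 0.963, 0.613 and 0.871 FPKM in the libraries labelled Wtap-βKO (81, 49 and 67 reads), against 0.460, 0.397 and 0.365 FPKM in controls (36, 28 and 29 reads). Every library labelled Wtap-βKO lay above every control, and the ratio of means was 2.001. The log2 fold change of 0.36 (SE 0.13) was not called (adjusted p = 0.0968 by limma), and the added 1 FPKM in the log makes it smaller than the ratio. On recovered reads, limma voom gave a log2 fold change of 0.97 and called it higher (adjusted p = 0.0247), where 11.6% of all genes were called higher. It was also called with no variance trend (adjusted p = 0.0412, 8.46% of genes called higher) and among protein-coding genes alone (adjusted p = 0.0370, 13.5% of genes called higher). Controls averaged 0.408 FPKM, so Vipr2 passed the filter of a mean of 0.5 FPKM only through the libraries labelled Wtap-βKO, and with no filter its adjusted p was 0.109. Adcyap1r1, which encodes the PACAP-selective receptor PAC1, was 1.72, 1.23 and 1.54 FPKM in the libraries labelled Wtap-βKO and 1.72, 0.844 and 1.04 FPKM in controls. The groups overlapped, with control replicate 1 as high as any other library, and the log2 fold change of 0.20 (95% interval -0.20 to 0.59) was not called (adjusted p = 0.452 by limma).

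The CRH receptor genes and the secretin receptor gene fell below the filter. Crhr1, whose main ligand is CRH, was 0.280, 0.0227 and 0.141 FPKM in the libraries labelled Wtap-βKO (13, 1 and 6 reads), against 0.534, 0.437 and 0.411 FPKM in controls (23, 17 and 18 reads). All 3 controls lay above all 3 libraries labelled Wtap-βKO, with 20 reads in all in that group and 58 in controls. With no filter on low values its log2 fold change was -0.35 (95% interval -0.59 to -0.12, adjusted p = 0.0885 by limma), which did not pass. Crhr2, the urocortin receptor known in islets from δ cells, was 0.415, 0.579 and 0.487 FPKM in the libraries labelled Wtap-βKO and 0.469, 0.384 and 0.407 FPKM in controls, with overlapping groups. Sctr had 12, 8 and 1 reads in the libraries labelled Wtap-βKO and 0, 3 and 3 reads in controls. Its highest and second highest libraries carried the label Wtap-βKO, but replicate 3 of that group lay among the controls.

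Of the 10 receptors, 6 reached a mean of 0.5 FPKM and were tested (Glp1r, Gipr, Gcgr, Vipr1, Vipr2 and Adcyap1r1). Of these 3 were called lower and 0 higher by limma, where 20.1% of all genes tested were called, 11.3% lower and 8.77% higher. Before adjustment 1 receptor (Vipr2) was higher with p under 0.05, and limma voom called it. The split of calls over all genes depended on the scaling: 43.7% of called genes were higher as deposited, 68.1% when scaled to total recovered reads and 53.8% when scaled without the 50 highest genes. The groups of Glp1r, Gipr and Vipr1 did not overlap and were lower, and of all genes tested 41.3% did not overlap, 22.1% lower and 19.1% higher. Vipr2 did not overlap either, but it reached the filter only through the group where it was high, so nothing is read from its place in these counts. The median log2 fold change of the 6, Vipr2 among them, was -0.15, and that of all genes was -0.0054. Nothing is read from that median either, for the same reason. The count of receptors called lower was 1 (Glp1r) when replicate 1 or 3 labelled Wtap-βKO or control replicate 1 or 2 was left out, and 2 when control replicate 3 was. Without replicate 2 labelled Wtap-βKO, which stood apart, all 3 were called, with log2 fold changes of -1.31 for Glp1r, -0.98 for Gipr and -0.23 for Vipr1, while Vipr2 was at 0.45 (adjusted p = 0.0662 by limma).

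**Figure D2:**
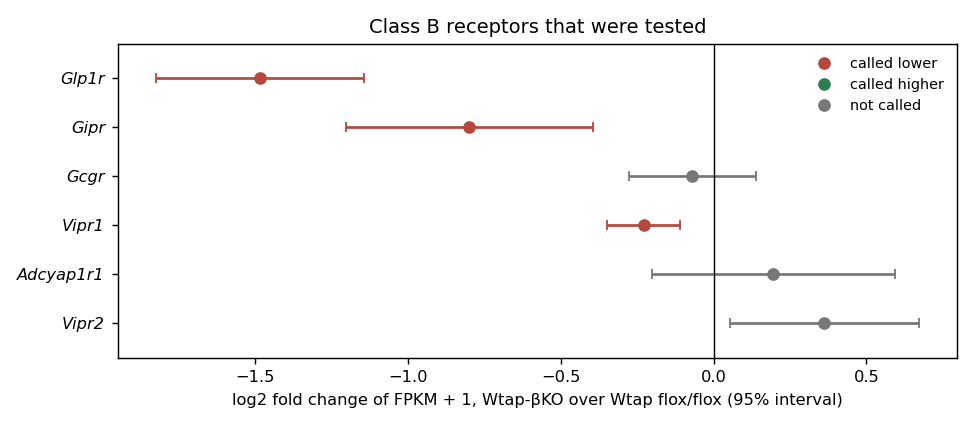
Log2 fold change of FPKM + 1 (x axis, libraries labelled Wtap-βKO over controls) with its unadjusted 95% interval for the 6 receptors tested, from highest to lowest mean level. Glp1r (-1.48), Gipr (-0.80) and Vipr1 (-0.23) were called lower, and the intervals of Gcgr and Adcyap1r1 include 0.

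The receptors formed a pool of unequal levels in FPKM, so that shares of it depend on the deposited gene lengths. Their summed level was 131, 128 and 125 FPKM in the libraries labelled Wtap-βKO, against 252, 275 and 242 FPKM in controls. Glp1r made up 41.4% ± 8.33 of that sum in the libraries labelled Wtap-βKO and 57.9% ± 1.68 in controls (SD, n = 3 each). Gipr made up 31.8% ± 7.59 and 27.6% ± 1.85, which overlapped between the groups. The share of Gcgr was 13.0% ± 1.05 in the libraries labelled Wtap-βKO and 6.85% ± 0.290 in controls, and that of Vipr1 was 11.3% ± 0.284 and 6.71% ± 0.249. The shares of Gcgr and Vipr1 were larger in the libraries labelled Wtap-βKO although neither gene's mean level was higher there, since the sum was smaller.

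**Figure D3:**
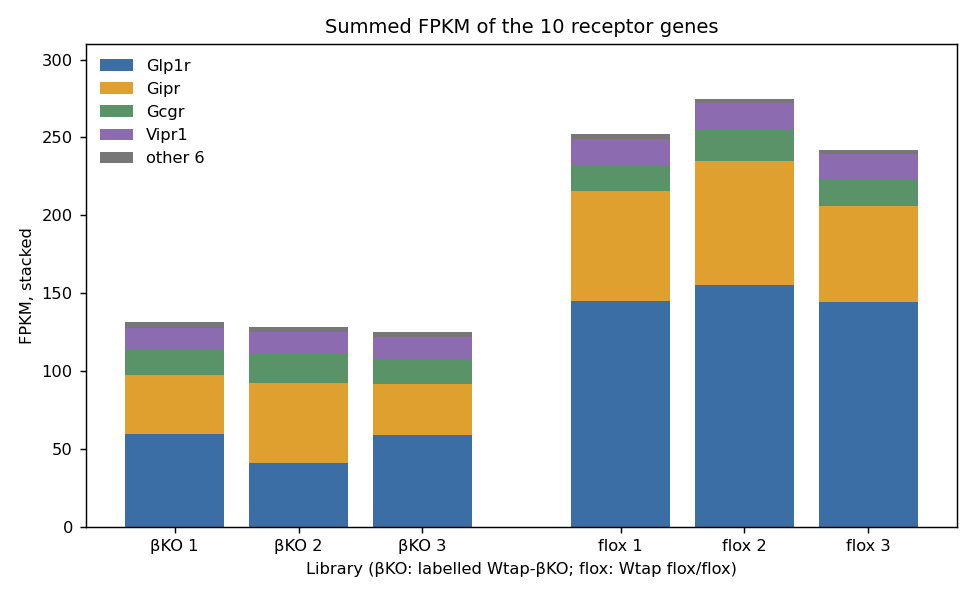
Summed FPKM of the receptor genes in each library (x axis: 3 libraries labelled Wtap-βKO, then 3 Wtap flox/flox libraries), stacked by gene, with the 6 less abundant genes together in grey. The bars reach 125 to 131 FPKM in the libraries labelled Wtap-βKO and 242 to 275 FPKM in controls, and replicate 2 labelled Wtap-βKO has more Gipr than Glp1r.

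Which receptors could be ordered by level differed between the groups. In the libraries labelled Wtap-βKO, the ranges of Glp1r and Gipr overlapped, Gcgr lay above Vipr1 in every library, and Adcyap1r1, Vipr2 and Crhr2 followed without overlap. In controls Glp1r lay above Gipr in every library, the ranges of Gcgr and Vipr1 overlapped, and Adcyap1r1 was followed by Crhr1, Crhr2 and Vipr2, whose ranges overlapped. Sctr and Glp2r, each under 0.1 FPKM in every control, could not be ordered there, nor could Sctr, Crhr1 and Glp2r in the libraries labelled Wtap-βKO.

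Of the 9 ligand genes of these receptors, 5 were tested, and 1 was called lower and 0 higher (by limma; before adjustment 2 were higher with p under 0.05, and limma voom called 1). Ucn3, the β-cell urocortin that acts on CRHR2, was 151, 178 and 173 FPKM in the libraries labelled Wtap-βKO, against 229, 247 and 231 FPKM in controls. It fell by 0.49 on the log2 scale (SE 0.078, adjusted p = 0.00685 by limma) with no overlap, and its call held in all 18 alternatives. Ucn3 also counts among the β-cell markers called lower, so the fall of those markers is not separate from it. Gcg, which encodes glucagon, GLP-1 and GLP-2 in a single precursor, was 35736, 31533 and 41946 FPKM in the libraries labelled Wtap-βKO, against 24177, 20117 and 23218 FPKM in controls. Its groups did not overlap, but the log2 fold change of 0.69 (SE 0.24) was not called (adjusted p = 0.0890 by limma). The outcome depended on the processing, and limma voom called Gcg higher (adjusted p = 0.000319). So did limma after quantile normalization (0.0018), with no variance trend (0.0178) and on genes of at least 5 FPKM (0.0142). It also did with total recovered reads as the scale (0.0333) and scaled without the 50 highest genes (0.0484). Calls also came among protein-coding genes alone (0.046) and without replicate 2 labelled Wtap-βKO (0.046). It was not called in the others (adjusted p 0.066 to 0.92). Gcg is itself the defining α-cell transcript, and the part that the higher α-cell markers play in its values was not tested.

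Adcyap1, which encodes PACAP, was 0.915, 1.204 and 0.9998 FPKM in the libraries labelled Wtap-βKO and 0.683, 0.546 and 0.646 FPKM in controls (adjusted p = 0.0927 by limma). Every library labelled Wtap-βKO was above every control, on 18 to 45 reads each. Vip was 26.1, 36.8 and 24.7 FPKM in the libraries labelled Wtap-βKO and 33.5, 16.7 and 30.3 FPKM in controls, with wide and overlapping groups (adjusted p = 0.723). Sct, the secretin gene, had between 3 and 9 reads in every library (adjusted p = 0.580). Gip, Crh and Ucn had 0 reads in every control and 1 read each in all libraries labelled Wtap-βKO together, and Ucn2 had 0 reads throughout. For Gip a count of 0 allows up to 0.232 to 0.276 FPKM in a library. Dpp4, the protease that cuts GLP-1 and GIP, was 9.998, 8.84 and 9.93 FPKM in the libraries labelled Wtap-βKO, against 15.0, 17.1 and 15.2 FPKM in controls. It fell by 0.66 on the log2 scale (SE 0.076, adjusted p = 0.00224 by limma), and its call held in all 18 alternatives.

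Other class B receptors were scarce in these islets. Of 5 listed, Calcrl, the CGRP and adrenomedullin receptor of vessels, and Pth1r, a parathyroid hormone receptor, were tested and not called by limma (0 by limma voom, and 0 with p under 0.05 before adjustment). Calcrl was 2.66, 3.02 and 2.66 FPKM in the libraries labelled Wtap-βKO and 2.63, 2.14 and 2.54 FPKM in controls. Pth2r had at most 2 reads and Calcr at most 12 reads in any library, and Ghrhr had 0 reads in all 6, which allows up to 0.0456 to 0.0545 FPKM each. Of the 3 RAMP genes, whose proteins pair with class B receptors and alter the peptides they bind, Ramp2 alone was called. It was 4.18, 4.86 and 5.04 FPKM in the libraries labelled Wtap-βKO, against 3.302, 2.51 and 2.95 FPKM in controls, and rose by 0.54 on the log2 scale (SE 0.10, adjusted p = 0.0138 by limma), a call lost without replicate 3 labelled Wtap-βKO (adjusted p = 0.0504). Ramp1 was 2.94 ± 0.248 FPKM in the libraries labelled Wtap-βKO and 2.24 ± 0.242 FPKM in controls (SD, n = 3 each, adjusted p = 0.0787), and Ramp3 was 5.89 ± 0.945 FPKM and 5.78 ± 1.14 FPKM (adjusted p = 0.910). Of 7 endothelial markers 0 were called by limma, and their summed level was 174 to 197 FPKM in the libraries labelled Wtap-βKO and 147 to 179 FPKM in controls; 4 of 7 mesenchymal markers, Rgs5 of pericytes among them, were called higher. The part of vessel and mesenchymal RNA in the rise of Ramp2 was not tested.

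Genes around the receptors were called in both directions. Of 70 ligand, accessory and signalling genes tested, each counted once, 6 were called higher and 14 lower, with a median log2 fold change of -0.012, where 8.77% of all genes tested were called higher and 11.3% lower. The count of 6 is near the share of all genes called higher, and the lists below are read against the same shares. The higher count was 1 to 3 without any single library except replicate 2 labelled Wtap-βKO, and 9 without that replicate. Of 9 G protein α subunit genes, Gnas, which encodes Gsα, and Gnao1 rose, and the inhibitory subunit genes Gnai2 and Gnai3 fell. Gnas was 28.8, 26.6 and 33.8 FPKM in the libraries labelled Wtap-βKO, against 23.5, 18.4 and 20.02 FPKM in controls (log2 fold change 0.51, adjusted p = 0.0239 by limma). The Gnas call was lost without control replicate 2 or 3 or replicate 1 or 3 labelled Wtap-βKO (adjusted p 0.0586 to 0.0764) and with no filter (adjusted p = 0.0549), and its locus holds overlapping transcripts. Gnai3 was 29.6 ± 0.937 FPKM in the libraries labelled Wtap-βKO and 39.9 ± 1.48 FPKM in controls (SD, n = 3 each, adjusted p = 0.00338), called in all 18 alternatives. The calls of Gnao1 and Gnai2 were each lost without any single library except replicate 2 labelled Wtap-βKO (adjusted p 0.0792 to 0.102 for Gnao1 and 0.0555 to 0.0803 for Gnai2). That of Gnao1 was also lost with no variance trend (adjusted p = 0.0697) and with the replicate number as a block (adjusted p = 0.0577), and that of Gnai2 with total recovered reads as the scale (adjusted p = 0.0662).

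Of 7 adenylyl cyclase genes tested, Adcy4 was called higher and 0 lower (by limma; 0 lower by limma voom, and 0 with p under 0.05 before adjustment). Adcy4 was 2.50 ± 0.390 FPKM in the libraries labelled Wtap-βKO and 1.64 ± 0.127 FPKM in controls (SD, n = 3 each), and its call was lost in 8 of 17 alternatives, among them leaving out any single library except replicate 2 labelled Wtap-βKO (adjusted p 0.0765 to 0.114), quantile normalization (0.0506), no filter (0.107) and the replicate block (0.0646). Adcy6, the most abundant cyclase gene named here, was 33.1 ± 1.95 FPKM in the libraries labelled Wtap-βKO and 28.9 ± 1.25 FPKM in controls (adjusted p = 0.0829). Of 8 genes of the cAMP effectors protein kinase A and EPAC, 4 fell and 0 rose (by limma; 0 higher by limma voom, and 0 with p under 0.05 before adjustment). All 4 encode protein kinase A subunits, and each was called in all 18 alternatives. The regulatory subunit gene Prkar2b was 13.0, 12.0 and 11.8 FPKM in the libraries labelled Wtap-βKO, against 19.7, 19.3 and 19.5 FPKM in controls (log2 fold change -0.63, adjusted p = 0.000929 by limma). Prkar1b, another regulatory subunit gene, had a log2 fold change of -0.46 (adjusted p = 0.00358), and the catalytic subunit genes Prkacb and Prkaca had -0.42 (adjusted p = 0.00918) and -0.32 (adjusted p = 0.00617).

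**Figure D4:**
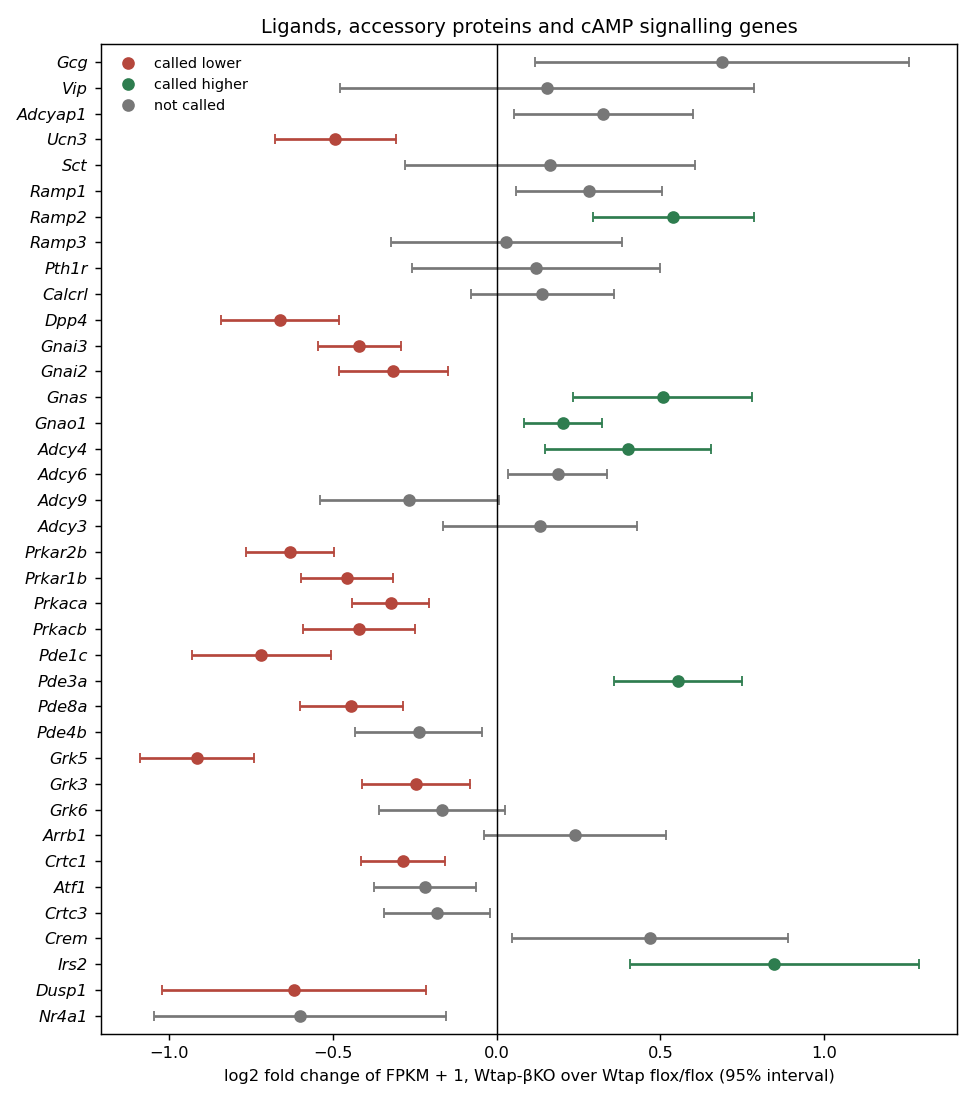
Log2 fold change of FPKM + 1 (x axis, libraries labelled Wtap-βKO over controls) with its unadjusted 95% interval for the named ligands, RAMPs, other class B receptors and signalling genes that were tested, ordered by role from ligands at the top to cAMP-responsive genes at the bottom. The 4 protein kinase A genes lie between -0.63 and -0.32, and Irs2 lies at 0.85.

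Of 13 phosphodiesterase genes, which end cAMP and cGMP signals, Pde3a rose and Pde1c and Pde8a fell, counts near the share of all genes called (8.77% higher and 11.3% lower). Pde1c was 1.31 ± 0.144 FPKM in the libraries labelled Wtap-βKO and 2.79 ± 0.133 FPKM in controls (SD, n = 3 each, adjusted p = 0.00306 by limma). Pde3a was 2.70 ± 0.143 FPKM and 1.52 ± 0.0808 FPKM (adjusted p = 0.00561), and Pde8a was 13.7 ± 0.222 FPKM and 19.0 ± 1.41 FPKM (adjusted p = 0.00580). The calls of these 3 held in every alternative. Of 7 genes of receptor desensitization, Grk5 and Grk3, kinases that phosphorylate active receptors, fell and 0 rose (by limma; 0 higher by limma voom, and 0 with p under 0.05 before adjustment). Grk5 was 10.5, 9.79 and 8.70 FPKM in the libraries labelled Wtap-βKO, against 19.3, 19.3 and 18.6 FPKM in controls (log2 fold change -0.91, adjusted p = 0.000686 by limma), a call that held in all 18 alternatives. The call of Grk3 (adjusted p = 0.0485) was lost in 11 of 18, among them leaving out any 1 of the 6 libraries (adjusted p 0.0638 to 0.141) and scaling to total recovered reads (0.242).

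Of 8 CREB family and coactivator genes, Crtc1 fell (log2 fold change -0.29, adjusted p = 0.0129 by limma), and 0 rose (by limma voom 1 was higher, and before adjustment 1 was higher, Crem, and 3 lower with p under 0.05). The Crtc1 call was lost without control replicate 3 (adjusted p = 0.0522) and with total recovered reads as the scale (log2 fold change -0.18, adjusted p = 0.0594). Of 9 tested cAMP-responsive genes, Irs2 rose and Dusp1 fell by limma. Limma voom called 2 higher and 4 lower, and before adjustment 2 were higher and 4 lower with p under 0.05. Nr4a1 (log2 fold change -0.60) was not called (adjusted p = 0.0654 by limma), but limma voom called it lower (adjusted p = 0.00793). Irs2, an insulin receptor substrate gene known to be induced by GLP-1 receptor signals through CREB, was 33.2, 20.4 and 34.1 FPKM in the libraries labelled Wtap-βKO, against 16.6, 14.9 and 14.8 FPKM in controls (log2 fold change 0.85, adjusted p = 0.0210 by limma). Its lowest value in the libraries labelled Wtap-βKO was in replicate 2, which had the lowest Glp1r and the highest Gipr and Ppy of its group. Between the groups Glp1r was lower (log2 fold change -1.48) and Irs2 higher, and a link between them was not tested. The call of Irs2 was lost without any single library except replicate 2 labelled Wtap-βKO (adjusted p 0.0523 to 0.0702) and with no filter (0.0534). That of Dusp1 (log2 fold change -0.62, adjusted p = 0.0445) was lost without any single library except replicate 3 labelled Wtap-βKO (adjusted p 0.0558 to 0.129). It was also lost with total recovered reads as the scale (adjusted p = 0.0781), scaled without the 50 highest genes (0.0620), after quantile normalization (0.0735), with no filter (0.1001) and with no variance trend (0.0627), in 10 of 18 alternatives in all.

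Insulin transcripts are abundant in islets and can weigh on a scaling to total reads. Their share of FPKM, given here, is relative to gene length and is not their share of reads. Ins1 and Ins2 together took 18.9%, 19.2% and 18.8% of all FPKM in the libraries labelled Wtap-βKO, against 28.9%, 32.6% and 32.2% in controls (p = 0.1 by a two-sided exact permutation test, which can give no smaller p with 3 libraries per group). With values scaled without the 50 highest genes, Glp1r, Gipr and Vipr1 remained called lower, with log2 fold changes of -1.44, -0.76 and -0.19.

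The genes whose log2 levels followed those of the receptors most closely over the 6 libraries were named for the 3 most abundant receptors, among 11485 genes with a mean of at least 1 FPKM. For Glp1r they were Pitpnm3 (Pearson r = 0.999), Cerk (0.999) and Arfgef1 (0.998), and 718 genes had an r over 0.95. For Gipr they were Anks6 (0.997), Med25 (0.996) and Kctd20 (0.996), with 245 genes over 0.95. For Gcgr they were Cep70 (0.998), Stx4a (0.990) and Pla2g6 (0.987), with 17 genes over 0.95. The libraries fall into the study's groups, so the r of Glp1r and Gipr mostly carries the difference between them.

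On GRCm38, Glp1r is annotated in the deposited table on chromosome 17 from 30901867 to 30936510 on the plus strand with 1480 bases of exon. GENCODE M21 gives 30901817 to 30940791 and a transcript of 13 exons and 5811 bases, so reads from the rest of the 3′ end were outside the counted model. Gipr (chromosome 7, 19156061 to 19166127, minus strand), Vipr1 (chromosome 9, 121642716 to 121672954, plus strand), Vipr2 (chromosome 12, 116077726 to 116146261, plus strand), Gcgr (chromosome 11, 120530699 to 120538986, plus strand) and Crhr1 (chromosome 11, 104132855 to 104175523, plus strand) had the same ends in both. So did Glp2r (chromosome 11, 67661502 to 67771153, minus strand), Adcyap1r1 (chromosome 6, 55451978 to 55501451, plus strand), Crhr2 (chromosome 6, 55090049 to 55133016, minus strand) and Sctr (chromosome 1, 120006894 to 120063536, plus strand). The spans of other annotated genes overlap those of Glp1r, Gcgr, Glp2r and Vipr2, and the genes across Glp1r have no row in the deposited values. Overlap of exons was not examined, so how far reads are shared without strand is not known. Gas7, which lies across Glp2r, averaged 0.463 FPKM in the libraries labelled Wtap-βKO and 0.333 FPKM in controls, above Glp2r itself at 0.0319 FPKM and 0.0137 FPKM, and Rcvrn, also across Glp2r, was at 0 in all 6 libraries. The gene across Vipr2 averaged 0.0605 FPKM in the libraries labelled Wtap-βKO and 0.00677 FPKM in controls, and the antisense gene across Gcgr 2.56 FPKM and 2.03 FPKM.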

How the data were processed

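The authors deposited FPKM values per gene, with gene lengths in bases, per the file headers. The deposited values had a median-of-ratios factor of 1.007 in every library and were used without further scaling. HISAT2 2.0.5, CASAVA, DESeq2 1.20.0 and featureCounts 1.5.0-p3 are named in the submitters' processing notes, without role or order, with the builds GRCm38 and mm10. Per the labels' protocols the libraries were made with poly-T capture and random primers, with no step that marks strand. FPKM multiplied by gene length rose in equal steps of 1 read (100.0% of values above 0 came out whole within 0.01 read), and these are the recovered reads. Replicate libraries differed by more than sampling noise (chi-square per degree of freedom 5.38 to 18.1).

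Genes with a mean of at least 0.5 FPKM (15927) were fitted as log2(FPKM + 1) with limma 3.58.1 in R 4.3.3 (lmFit, then eBayes with trend). Two-sided p-values were adjusted by Benjamini-Hochberg across those genes, and genes under 0.05 were called. Every adjusted p comes from this fit unless another is named. Fold changes are libraries labelled Wtap-βKO over controls, and on this scale they understate the change of low genes. SE is limma's moderated standard error. Intervals for log2 fold changes are 95% and not adjusted. The scripts were tested on simulated data. Counting limits of 3 reads cover counting error only, since PCR reads are not independent molecules.

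The receptors, gene lists and named genes were chosen with earlier results of these data known. Named were the receptors, their ligands, other class B receptors and RAMPs, up to 4 genes of each other list by smallest adjusted p with a mean of at least 1 FPKM, Wtap, Ins1, Ins2, Gcg, Sst and Ppy, and the 3 genes most correlated with each of the 3 most abundant receptors. Predicted gene models, Rik clones, pseudogenes and microRNAs were left out of the correlated genes. Alternatives covered scaling, pseudocount, filter, variance model, limma voom on recovered reads (library size from the worth of 1 read), a replicate block, tests of protein-coding genes only, and leaving out each library in turn. Promoters came from a RefSeq table (GRCm38.p6), coordinates and transcripts from GENCODE M21. Python 3.11.15 with pandas 2.3.3 and matplotlib 3.10.9 did the rest.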

Additional observations from a re-analysis of the deposited data

How the results depend on the processing

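The call of Glp1r held in all 18 alternatives, and the losses of the Gipr and Vipr1 calls stand with their results. Scaled to total recovered reads, 2336 genes were called higher and 1093 lower, against 1397 and 1798 as deposited. Leaving out 1 library gave 782 to 1380 genes higher and 1027 to 1853 lower, and 1 to 3 receptors lower. The count of receptors called higher was 1 (Vipr2) with no variance trend, with limma voom and among protein-coding genes alone. The count of pathway genes called higher was 3 with no filter on low values and 1 to 9 leaving out 1 library. Some log2 fold changes near 0 turned sign. That of Gcgr was 0.038 with total recovered reads as the scale, and -0.13 to 0.0084 leaving out 1 library (0.0084 without control replicate 2). That of Ramp3 was -0.092 to 0.15 (-0.066 without replicate 3 labelled Wtap-βKO, -0.092 without control replicate 2), and that of Vip was -0.14 to 0.34 (-0.020 without replicate 2 labelled Wtap-βKO, -0.14 without control replicate 2). Beyond fewer samples, the cause was not tested. The samples share a replicate number only. Deviations from the group means of same-numbered libraries correlated at 0.029, 0.038 and 0.018, each library correlating best with its own number. These correlations are small, and replicate 3 labelled Wtap-βKO had 0.013 with control replicate 1, so no pairing is read from them. With the replicate number as a block, 1148 genes were higher and 1490 lower, the same 3 receptors, Glp1r, Gipr and Vipr1, were lower, and Gnao1 (adjusted p = 0.0577 by limma) and Adcy4 (adjusted p = 0.0646) were no longer called. Depth limits Crhr1, Sctr and Glp2r, which had at most 23 reads in any library.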

Other observations

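The transcripts of the receptors were also searched for the letters GGACT, a common form of the sequence at which the writer complex places N6-methyladenosine. In the longest protein-coding GENCODE M21 transcript of each gene, Glp1r held 5 of them in 5811 bases (0.860 per kilobase) and Gipr 4 in 2856 bases (1.40 per kilobase). Vipr1 held 3 (0.612 per kilobase), Vipr2 4 (1.18 per kilobase) and Gcgr 2 (1.02 per kilobase). The median over 12692 protein-coding genes tested was 1.05 per kilobase, so the 3 receptors called lower lay on both sides of it. A match describes letters, and methylation was not measured in the libraries analysed here.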
